A study of Mus musculus with 4 samples.

Results

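The epidermal growth factor (EGF) family and its receptors were read as 10 genes, found by symbol among the 28693 features of 4 droplet-based single-cell RNA libraries of the mouse mammary gland. Of these, 6 encode ligands (*Areg*, *Hbegf*, *Ereg*, *Tgfa*, *Btc* and *Nrg1*) and 4 encode receptors (*Egfr*, *Erbb2*, *Erbb3* and *Erbb4*). The ligands are made as membrane-bound precursors that proteases cut free, and they bind receptor tyrosine kinases, which pair up and signal through RAS, ERK and PI3K. EGFR is the receptor of amphiregulin, epiregulin and TGF-alpha, ERBB3 and ERBB4 bind neuregulins, and ERBB2 has no known ligand and serves as a partner. In the mammary gland, amphiregulin is known as the signal by which hormone-sensing luminal cells relay estrogen to their neighbors during ductal growth.

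The libraries came from 2 WT and 2 LATS1/2 KO mice, 1 library per mouse. WT mice carried floxed *Lats1* and *Lats2* alleles and 1 copy of the R26-lsl-EYFP reporter but no Cre, so WT here does not mean an unmodified genome. LATS1/2 KO mice carried the same floxed alleles with Krt8-CreERT2, a tamoxifen-inducible Cre under the promoter of keratin 8, which is active in luminal cells. The reporter was heterozygous in replicate 1 of LATS1/2 KO and homozygous in replicate 2. All 4 mice were given 2 mg tamoxifen into the peritoneum on each of 5 consecutive days, and the glands were taken 7 days after the last dose. The mice were adult and nulliparous, 3 to 10 months old at the start, and live cells of 3 gland pairs per mouse were sorted together with no selection for a cell type. LATS1 and LATS2 are the kinases that restrain the coactivators YAP and TAZ, and the comparison asks how their loss from luminal cells changes the gland; here it is read through the EGF family alone.

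Of 20324 barcodes, 18200 cells passed the quality limits, between 3515 and 5272 per library, with library medians of 5962.5 to 10141 unique molecular identifiers (UMIs) per cell and 38792520 to 46810771 UMIs per library. The cells fell into 25 clusters, and clusters were named from marker genes, so that each name stands for cells resembling that type: luminal ER- cells (the secretory-type luminal cells without estrogen receptor), hormone-sensing cells (luminal cells with estrogen and progesterone receptors), basal cells and fibroblasts. Different clusters held most of the epithelial classes in WT (1, 2, 8 and 11 for luminal ER-, 3 and 9 for hormone-sensing, 18 for basal) and in LATS1/2 KO (4, 5 and 6, then 16, then 10). Cell division genes such as *Birc5* and *Cdk1* led cluster 5, and the immediate early genes *Fos* and *Egr1* were among the leading genes of cluster 8. The 3 further epithelial clusters of LATS1/2 KO, numbers 12, 14 and 19, mixed the markers of several classes and received no class. *Lats1* stood at 25.6 and 25.3 CPM (UMIs of a gene over all cells of a class in one mouse, per 1000000 UMIs of that class) in luminal ER- cells of WT replicates 1 and 2 and at 14.1 and 17.1 CPM in those of LATS1/2 KO replicates 1 and 2, the order in which values of the mice are given throughout. *Lats2* stood at 15.0 and 16.7 CPM in WT and at 26.2 and 28.3 CPM in LATS1/2 KO, and since 3′ tags may lie outside the deleted parts, these levels do not check the deletion. *EYFP*, the reporter, stood at 0.307 and 0.370 CPM in WT and at 74.8 and 100.2 CPM in LATS1/2 KO. The same barcode sequence occurred in more than 1 library 43 times.

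The members differed in the classes that carried them. Levels are CPM of a class in one mouse, as above, and 3′ tags carry no length term. *Areg* (amphiregulin) was highest in hormone-sensing cells, at 591 to 3280 CPM over the 4 mice against 6.14 to 46.1 in luminal ER- cells and 4.43 to 47.5 in basal cells. *Hbegf*, the heparin-binding ligand of EGFR and ERBB4, was high in luminal ER- cells, at 248 to 402 CPM, and in endothelial cells, at 233 to 410 CPM, ranges that overlapped. *Nrg1*, a ligand of ERBB3 and ERBB4, was higher in basal cells (20.6 to 38.5 CPM) than in luminal ER- cells (1.57 to 5.49 CPM) without overlap. The ranges of *Egfr* over the mice were 123 to 176 CPM in fibroblasts, 34.3 to 78.4 in basal cells, 26.4 to 39.2 in luminal ER- cells and 3.50 to 6.09 in hormone-sensing cells, so that only its basal and luminal ER- ranges overlapped. *Erbb3*, a neuregulin receptor with little kinase activity of its own, was carried by the luminal classes, at 70.0 to 100.4 CPM in luminal ER- and 79.9 to 207 CPM in hormone-sensing cells. Its 8.86 to 17.0 CPM in basal cells were 0.616 to 1.32 times the level that free RNA in the droplets would give, estimated from collagen or milk-type transcripts that a class should lack. *Areg* in basal cells lay below that expected level in all 4 mice (0.0986 to 0.500 times), so neither stood above background there. These levels are a description of 2 mice per group, and fewer cells with a transcript cannot be told apart from less transcript per cell in a sum.

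**Figure D1:**
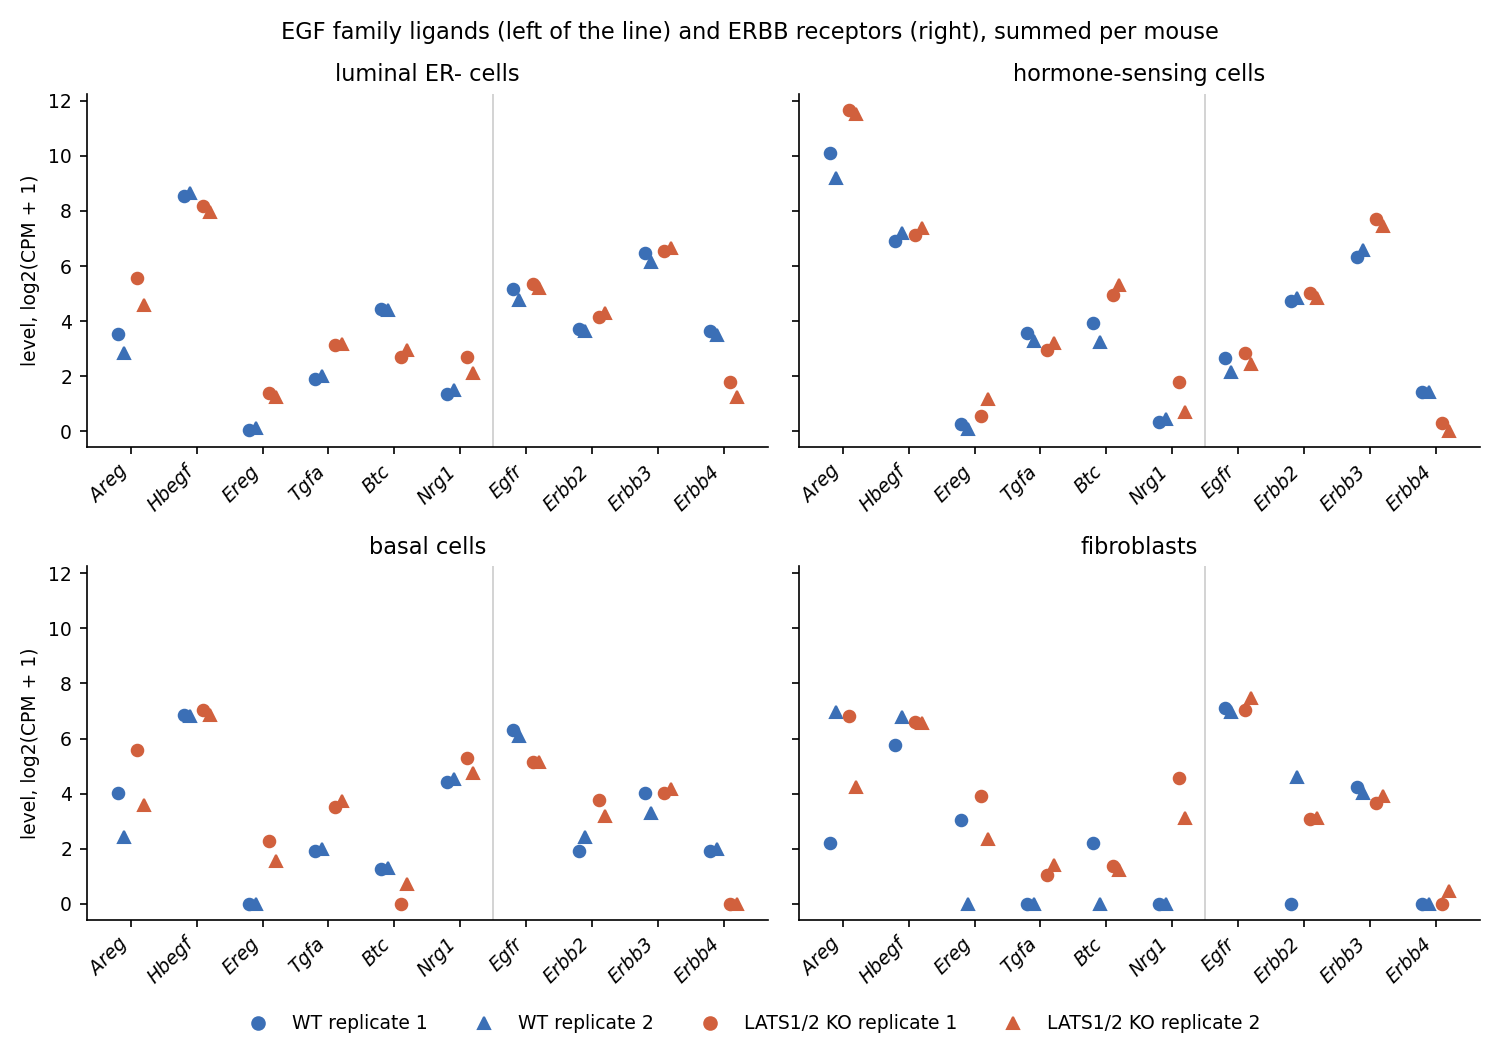
Level of each member as log2(CPM + 1) (vertical axis, log scale) in 4 cell classes, with 1 point per mouse (blue for WT, orange for LATS1/2 KO; circles for replicate 1, triangles for replicate 2) and a line between ligands and receptors. *Areg* of hormone-sensing cells tops the panels (591 to 3280 CPM), and *Btc* changes sides between the luminal classes, with WT mice higher in luminal ER- cells and lower in hormone-sensing cells.

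In luminal ER- cells, the ligands separated into those that rose and those that fell in LATS1/2 KO. *Areg*, *Ereg*, *Tgfa* and *Nrg1* rose, *Hbegf* and *Btc* fell, and of the receptors *Erbb4* fell while the other 3 did not pass the test. That is 7 of 10 members past an adjusted p of 0.05 (edgeR's quasi-likelihood test on the sums of 2 against 2 mice, with Benjamini-Hochberg adjustment over all genes), against 62.1% of all 13295 genes tested, so the share of members is near the background of a comparison in which most genes changed. All p-values are two-sided, and fold changes are on the log2 scale with their standard error (SE, n = 2 mice per group), after scaling to the bulk of genes. Without that scaling, by library totals alone, the median of all genes stood 0.334 higher, with 71.8% in place of 51.9% of calls in the upward direction, so the directions below are relative to the median gene.

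*Ereg*, the gene of epiregulin, was almost undetected in WT, with 1 and 2 UMIs among 2937 and 2108 luminal ER- cells. In LATS1/2 KO there were 30 and 28 UMIs among 1725 and 1742 cells, a ratio of 23.3 between the summed groups (7.59 to 116, exact interval for counting error only). The fitted rise was 4.10 ± 0.55 (adjusted p = 0.000371), and its UMIs lay in few cells, 28 and 25 in LATS1/2 KO and 1 and 2 in WT. Cluster 5, the cluster led by cell division genes, held 25 of the UMIs in each LATS1/2 KO mouse, cluster 4 held 4 and 0, and cluster 6 held 1 and 3. *Tgfa*, a ligand of EGFR, stood at 2.72 and 3.05 CPM in WT and at 7.88 and 7.89 CPM in LATS1/2 KO. The mice of each group lay close together and the groups did not overlap, with a rise of 1.12 ± 0.19 (adjusted p = 0.00108). *Nrg1* stood at 1.57 and 1.85 CPM in WT and at 5.49 and 3.37 CPM in LATS1/2 KO, again without overlap. Its rise was 1.04 ± 0.30 (adjusted p = 0.0166), and the call was lost without WT replicate 1 (adjusted p = 0.0609) or without LATS1/2 KO replicate 1 (adjusted p = 0.116).

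*Areg* in luminal ER- cells stood at 10.4 and 6.14 CPM in WT and at 46.1 and 23.3 CPM in LATS1/2 KO. The WT values were 0.571 and 0.735 times the free-RNA level, whereas the LATS1/2 KO values were 1.38 and 3.04 times it. The rise of 1.72 ± 0.49 was close to the threshold (adjusted p = 0.0477) and was called under 8 of 16 alternatives. It was lost without WT replicate 1 (adjusted p = 0.25) and without WT replicate 2 (adjusted p = 0.336), and the direction turned, at -0.90 (adjusted p = 0.394), when each cell was assigned by its own marker UMIs instead of its cluster. The share of these cells with an *Areg* UMI, at 2000 UMIs per cell, was 1.87% and 0.673% in WT and 7.89% and 3.33% in LATS1/2 KO. Basal cells, which served as the background for *Areg*, had 2.99% and 0.680% in WT and 6.38% and 1.85% in LATS1/2 KO, at median depths of 3224 to 5221 UMIs against 6784 to 8973 in luminal ER- cells. The basal shares rested on 5 and 1 cells with an *Areg* UMI in WT and on 24 and 9 in LATS1/2 KO. Exact 95% intervals of the basal and luminal ER- shares overlapped in every mouse, so no order of these classes is read from them.

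Both ligands that fell were abundant enough to be followed in every mouse. *Btc*, the gene of betacellulin, a ligand of EGFR and ERBB4, stood at 20.9 and 20.2 CPM in WT and at 5.43 and 6.69 CPM in LATS1/2 KO. The groups lay far apart beside the spread within them, and the fall was 2.09 ± 0.14 on the log2 scale (-2.09; adjusted p = 1.05e-05). *Hbegf* stood at 370 and 402 CPM in WT and at 292 and 248 CPM in LATS1/2 KO, and the change was -0.85 ± 0.11 (adjusted p = 0.000361). By library totals the change of *Hbegf* was smaller, at -0.52 (adjusted p = 0.00396), and no alternative lost the call of *Hbegf*, *Btc*, *Ereg* or *Tgfa*. The immediate early genes, with which dissociation responses of cells are often followed, moved beside *Hbegf* in these cells: their 15 genes summed to 21797 and 23959 CPM in WT and to 9253 and 10947 CPM in LATS1/2 KO, and their part in the change of *Hbegf* was not tested.

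Among the receptors of luminal ER- cells, *Erbb4*, a receptor of neuregulins and betacellulin, stood at 11.4 and 10.3 CPM in WT and at 2.45 and 1.35 CPM in LATS1/2 KO. No value of one group reached the other, and *Erbb4* changed by -2.85 ± 0.26 (adjusted p = 5.07e-05), a call kept under all 16 alternatives. *Egfr* stood at 34.6 and 26.4 CPM in WT and at 39.2 and 36.0 CPM in LATS1/2 KO, with a difference of -0.03 (95% interval -0.31 to 0.24, adjusted p = 0.849). *Erbb3* stood at 88.7 and 70.0 CPM in WT and at 93.2 and 100.4 CPM in LATS1/2 KO, with a difference of -0.05 (-0.29 to 0.20, adjusted p = 0.755). Both intervals were drawn from the SE with a normal quantile, which makes them narrow for 2 mice per group. Neither interval reaches the size of the change of *Hbegf* in the same cells. By library totals both differences were positive, at 0.30 (adjusted p = 0.0917) for *Egfr* and 0.29 (adjusted p = 0.0720) for *Erbb3*. *Erbb2* stood at 11.96 and 11.4 CPM in WT and at 16.9 and 18.8 CPM in LATS1/2 KO, and its difference of 0.27 ± 0.12 missed the threshold (adjusted p = 0.0836). By library totals *Erbb2* was called, at 0.61 (adjusted p = 0.00306). Markers of other classes moved with the group in these cells: the 10 basal markers, all detected in each mouse, summed to 54.2 and 46.7 CPM in WT and to 1204 and 852 CPM in LATS1/2 KO, and the 10 luminal ER- markers to 17982 and 21854 CPM in WT and to 14075 and 15642 CPM in LATS1/2 KO.

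**Figure D2:**
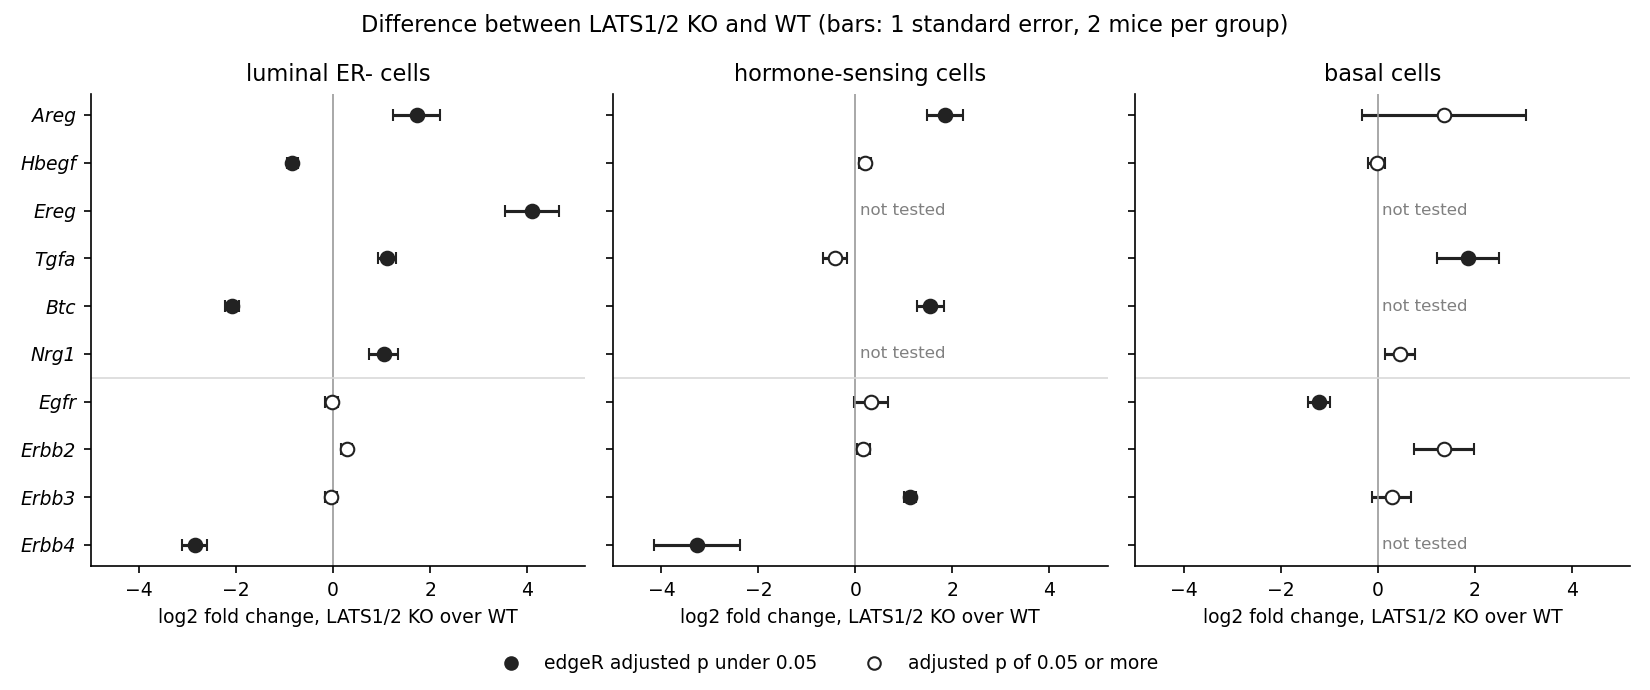
Difference between LATS1/2 KO and WT for each member in luminal ER-, hormone-sensing and basal cells, as log2 fold change (horizontal axis) with bars of 1 SE over 2 mice per group. Filled points passed an adjusted p of 0.05, and members with too few counts are marked as not tested. *Btc* lies at -2.09 in luminal ER- cells and at 1.54 in hormone-sensing cells, and *Erbb4* lies far to the left in both.

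The LATS1/2 KO values are averages over clusters that differed among themselves, in both mice alike. Along clusters 4, 6 and 5 of the luminal ER- class, *Erbb3* stood at 164 and 162, 146 and 130, and 55.0 and 52.1 CPM, so clusters 4 and 6 lay above and cluster 5 below the WT range of 70.0 to 88.7. *Erbb4* stood at 8.16 and 4.08 CPM in cluster 4, 2.27 and 1.16 in cluster 6 and 0.605 and 0.101 in cluster 5 (the last on 7 and 1 UMIs), so all 3 lay under the WT range of 10.3 to 11.4. *Egfr* and *Nrg1* went the other way, with *Egfr* at 29.4 and 26.9 CPM in cluster 4 and 46.0 and 44.0 CPM in cluster 5. Among clusters 4, 5, 6, 12, 14 and 19, the unassigned clusters 14 and 19 stood highest for several ligands. *Nrg1* reached 36.9 and 38.1 CPM in cluster 14 and 70.9 and 56.4 CPM in cluster 19 and in cluster 19 exceeded the basal cells of the same mouse (38.5 and 26.1 CPM) in both mice. *Hbegf* stood at 502 and 449 CPM in cluster 14 and at 482 and 466 CPM in cluster 19, above both WT mice of the luminal ER- class. *Egfr* of cluster 14, at 122 and 127 CPM, lay near its fibroblast level, and *Ereg* there stood at 7.90 and 10.5 CPM. Summed levels of 12 YAP/TAZ target genes were 5027 and 5473 CPM in cluster 14 and 3638 and 2823 CPM in cluster 19, against 1626 and 1824 CPM in cluster 4. Cluster 12 also had high sums of these genes, 3162 and 4204.5 CPM, with *Nrg1* at only 12.4 and 7.04 CPM. A link between these targets and the ligands was not tested. Cluster 14 was shallow, at medians of 3013 and 3489.5 UMIs per cell. With clusters 12, 14 and 19 counted as luminal ER- cells, an alternative chosen after the data had been seen, the rise of *Nrg1* was 2.38 (adjusted p = 9.05e-05), and *Hbegf* still fell, at -0.66 (adjusted p = 0.00103).

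**Figure D3:**
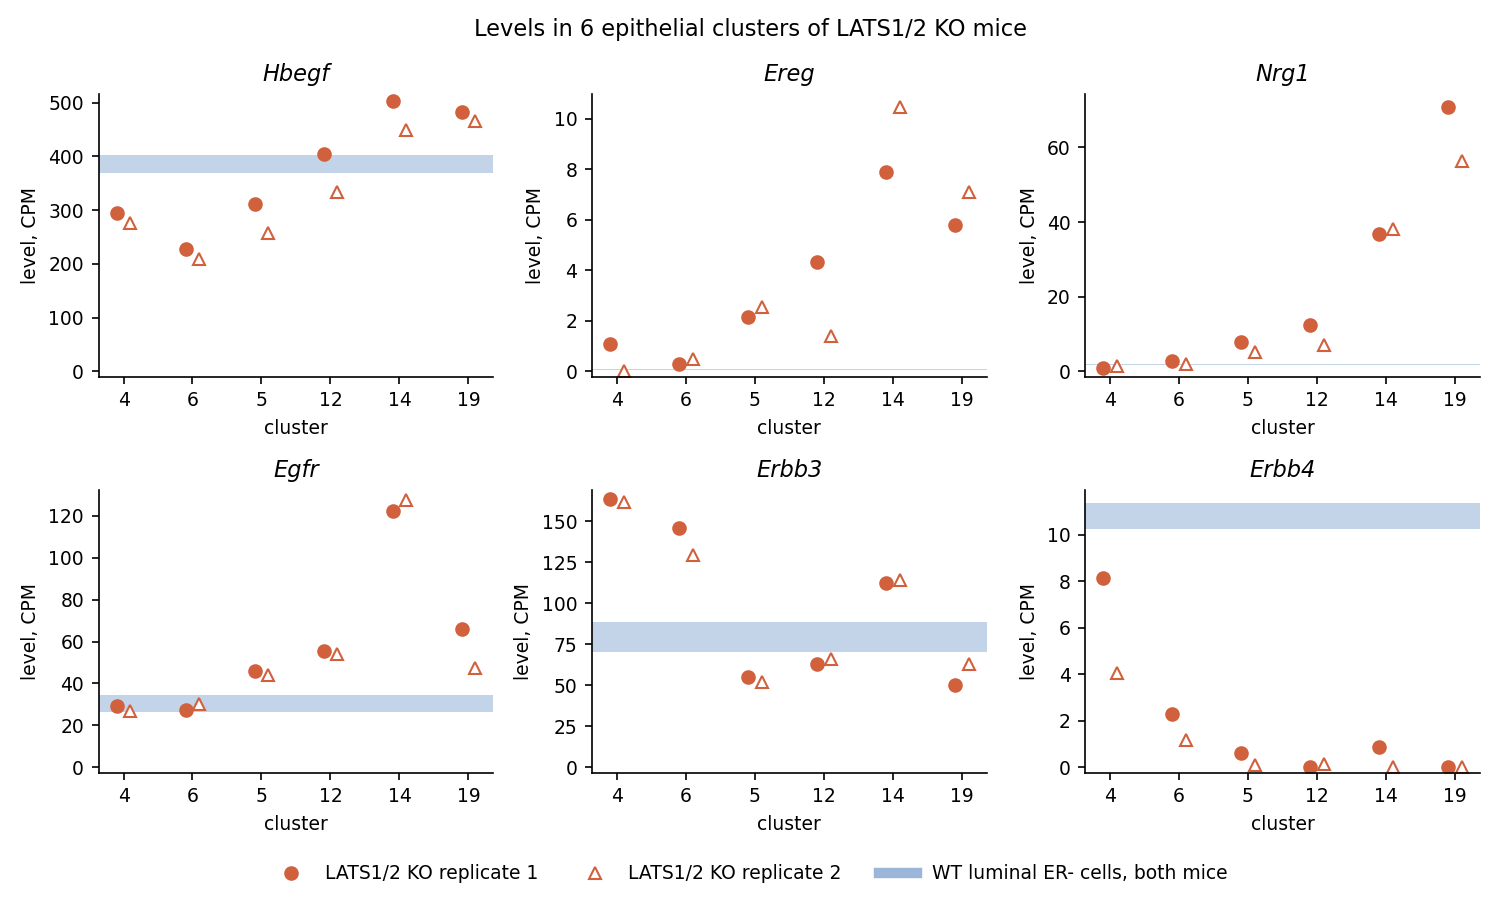
Level of 6 members in CPM (vertical axes, linear, from 0) in 6 epithelial clusters of LATS1/2 KO, first the luminal ER- clusters 4, 6 and 5 and then the unassigned clusters 12, 14 and 19, with 1 point per mouse and the range of the 2 WT mice in luminal ER- cells as a blue band. *Nrg1* reaches 70.9 and 56.4 CPM in cluster 19 while *Erbb4* lies below the WT band in every cluster drawn.

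Recombined cells can carry the reporter, and *EYFP* UMIs were found in 18.7% and 21.1% of luminal ER- cells of LATS1/2 KO and in 0.272% and 0.380% of those of WT, which carry no Cre. In the same LATS1/2 KO mice, *EYFP* UMIs were also found in 2.63% and 5.28% of endothelial cells and 3.03% and 3.06% of macrophages. Fibroblasts of these mice had 3.67% and 2.77%. The WT shares are thus not the background of the *EYFP* call in LATS1/2 KO, and a cell with an *EYFP* UMI need not be recombined. Cells without an *EYFP* UMI can still be recombined, as the call depends on depth: luminal ER- cells with *EYFP* held a mean of 17130 and 19030 UMIs, and those without it 9448 and 10030. Within the same mice, *Nrg1* and *Ereg* stood higher in *EYFP*-positive cells and *Erbb3* and *Erbb4* lower. Of 10 members, 7 passed the test with the mouse as a block (edgeR quasi-likelihood, 2 mice), against 41.9% of 12183 genes. With 2 mice, the p-values of this test rest mostly on a spread estimated over many genes.

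*Nrg1* stood at 4.08 CPM in *EYFP* = 0 cells and at 8.86 CPM in *EYFP*-positive cells of replicate 1, and at 1.60 and 6.86 CPM in replicate 2. It was higher in both mice, by 1.51 ± 0.26 (adjusted p = 7.21e-05). *Ereg* rose from 1.13 to 2.71 CPM and from 0.798 to 2.43 CPM, on 11 to 17 UMIs per sum, by 1.40 ± 0.41 (adjusted p = 0.00775). Smaller differences in the same direction were called for *Egfr* (0.36 ± 0.11, adjusted p = 0.00883), *Areg* (0.29 ± 0.11, adjusted p = 0.0315) and *Hbegf* (0.22 ± 0.08, adjusted p = 0.0242). The difference of *Areg* was called under 8 of 15 alternatives and turned to -0.51 when cells were assigned by their own markers and to -1.60 with both luminal classes pooled. In the other direction, *Erbb3* stood at 108 and 118 CPM in *EYFP* = 0 cells and at 58.9 and 66.1 CPM in *EYFP*-positive cells, a change of -0.86 ± 0.08 (adjusted p = 3.64e-08). *Erbb4* stood at 3.10 and 1.96 CPM in *EYFP* = 0 cells and at 0.904 and 0.143 CPM in *EYFP*-positive cells, where only 5 and 1 UMIs were counted, and its change was -2.34 ± 0.53 (adjusted p = 0.00113). *Tgfa* (0.17 ± 0.20), *Btc* (-0.54 ± 0.23, adjusted p = 0.0585) and *Erbb2* (-0.34 ± 0.14, adjusted p = 0.0670) did not pass the test. *Btc* was called under 7 of 15 alternatives, with differences from -2.35 to -0.28, and *Erbb2* under 5 of 15.

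Both states were unevenly spread over the clusters. *EYFP*-positive cells made up 37.0% and 52.4% of cluster 5 but 5.77% and 6.37% of cluster 4 and 7.33% and 12.6% of cluster 6. Clusters 12, 14 and 19, outside the class and so outside this comparison, held such cells too. Their shares were 38.5% and 53.8% in cluster 12, 15.5% and 24.7% in cluster 14, and 81.4% and 93.0% in cluster 19. The comparison thus covers only part of the *EYFP*-positive epithelial cells of these mice. Within cluster 5 alone, *Nrg1* (0.98, adjusted p = 0.0115), *Areg* (0.40, adjusted p = 0.0224) and *Hbegf* (0.23, adjusted p = 0.000129) were still called. *Ereg*, *Egfr* and *Erbb4*, called in the whole class, were not called within cluster 5. The difference of *Erbb3* was -0.21 there (adjusted p = 0.355) and -0.18 within clusters 4 and 6 (adjusted p = 0.731), where no member was called. With the cells thinned to 2000 UMIs, 3 members were called, and DESeq2 called 2. Basal markers summed to 1877 and 1309 CPM in *EYFP*-positive and to 923 and 620 CPM in *EYFP* = 0 luminal ER- cells, and the luminal ER- markers to 7951 and 8295 CPM against 16632 and 19374 CPM. Their part in the differences was not tested.

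**Figure D4:**
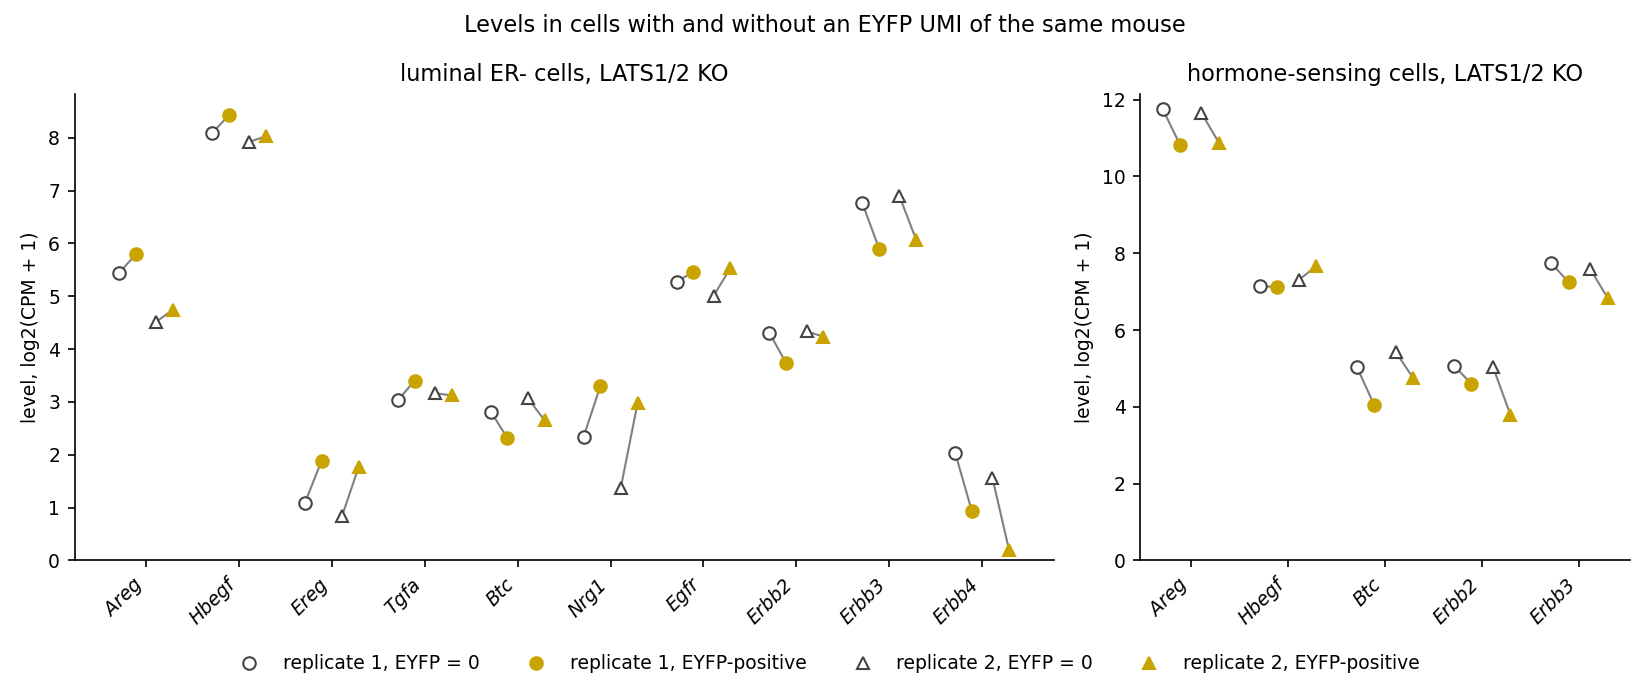
Members in cells without (open) and with (filled) an *EYFP* UMI of the same LATS1/2 KO mouse, as log2(CPM + 1), with lines joining both states of a mouse (circles replicate 1, triangles replicate 2). In luminal ER- cells (left) *Nrg1* is higher and *Erbb3* lower in *EYFP*-positive cells of both mice, and in hormone-sensing cells (right, 5 members with enough counts) *Areg* and *Erbb3* are lower in both.

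Cells of LATS1/2 KO in which no reporter was seen were compared with WT as well, on the same WT sums as the comparison of all luminal ER- cells. Again 7 members passed, against 54.9% of 13057 genes. *Ereg* (3.47 ± 0.64), *Tgfa* (1.05 ± 0.21) and *Areg* (1.61 ± 0.42) were higher and *Btc* (-1.95 ± 0.16), *Erbb4* (-2.44 ± 0.24) and *Hbegf* (-0.93 ± 0.12) lower, with adjusted p between 3.5e-05 and 0.0292 by edgeR. *Areg* lost its call without WT replicate 1 (adjusted p = 0.060), WT replicate 2 (adjusted p = 0.152) or LATS1/2 KO replicate 1 (adjusted p = 0.067), and turned to -0.72 under own-marker gating. *Nrg1*, at 4.08 and 1.60 CPM against 1.57 and 1.85 CPM in WT, overlapped with WT (0.39 ± 0.43, adjusted p = 0.465). *Erbb2* passed narrowly (0.36 ± 0.13, adjusted p = 0.0469), and its call was lost without any one of the 4 libraries (adjusted p 0.0718 to 0.296).

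In hormone-sensing cells the most abundant member, *Areg*, rose further. It stood at 1102 and 591 CPM in WT and at 3280 and 2899 CPM in LATS1/2 KO, at least 65.5 times the free-RNA level in each mouse. The groups did not overlap, and the rise was 1.86 ± 0.37 (adjusted p = 0.0401). It was called under 9 of 14 alternatives, and own-marker gating lost the call (1.38, adjusted p = 0.0586). Leaving out LATS1/2 KO replicate 1 or 2 lost the call (adjusted p 0.154 and 0.109) at similar sizes (1.72 and 1.96), which rest on 1 sum in that group. The share of cells with an *Areg* UMI at 2000 UMIs per cell was 53.9% and 39.4% in WT and 90.2% and 84.5% in LATS1/2 KO, beside at most 6.38% in basal cells. With 2 mice per group an exact permutation test of these shares cannot go below p = 0.33. In all, 4 of 8 members tested passed, against 30.2% of 12519 genes.

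*Btc*, which fell in luminal ER- cells, rose here, from 14.2 and 8.54 CPM in WT to 30.0 and 38.2 CPM in LATS1/2 KO. Both LATS1/2 KO mice lay above both WT mice, by 1.54 ± 0.28 (adjusted p = 0.00939), on 133 and 60 UMIs, and the call was lost without LATS1/2 KO replicate 1 (adjusted p = 0.0949) or 2 (adjusted p = 0.0926). *Erbb3* rose from 79.9 and 94.3 CPM to 207 and 173 CPM, by 1.13 ± 0.13 (adjusted p = 0.000916), and was called under 13 of 14 alternatives. *Erbb4*, at 31 and 33 UMIs in WT, fell to 1 and 0 UMIs in LATS1/2 KO, so that WT exceeded LATS1/2 KO by a ratio of 10.1 (1.75 to 405, exact counting interval). The fitted change of -3.26 ± 0.89 (adjusted p = 0.0295) was not called by DESeq2 (adjusted p = 0.162). It was also lost without LATS1/2 KO replicate 1 (adjusted p = 0.0969) or 2 (adjusted p = 0.0733). *Hbegf* (0.20 ± 0.13), *Tgfa* (-0.42 ± 0.25), *Egfr* (0.32 ± 0.36) and *Erbb2* (0.17 ± 0.14) did not pass, with adjusted p between 0.235 and 0.533. *Ereg* and *Nrg1*, at 1 to 11 UMIs per mouse, were not tested. The class drawn by each cell's own markers, with 2223 cells in place of 3081, gave other values: *Nrg1* was called at 7.28 (adjusted p = 0.000208), *Egfr* at 4.71 (adjusted p = 0.000351) and *Hbegf* at 0.99 (adjusted p = 0.00562). In that class *Areg* lost its call, *Btc* and *Erbb3* kept theirs, and *Erbb4* was not tested. The class itself differed in size and markers: 1398 and 1042 cells in WT against 493 and 148 in LATS1/2 KO, and 9 hormone-sensing markers summing to 5430 and 4735 CPM against 2181 and 2315 CPM.

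The reporter split ran against the group difference for *Areg* in these cells. *EYFP*-positive hormone-sensing cells, 44 and 33 in number, stood at 1815 and 1882 CPM of *Areg* and *EYFP* = 0 cells at 3473 and 3232 CPM. *Areg* was lower in *EYFP*-positive cells of both mice, by -0.85 ± 0.08 (edgeR with the mouse as a block, adjusted p = 3.9e-27), and both values exceeded those of all WT hormone-sensing cells. With 2 mice, that p-value rests mostly on a spread estimated over many genes, and its size does not measure the spread between mice. Over the 10 alternatives, by edgeR or DESeq2, the adjusted p of *Areg* ran from 1.41e-139 to 0.000169. *Erbb3*, too, was lower, at 151 and 114 CPM against 214 and 193 CPM (-0.60 ± 0.16, adjusted p = 0.00346). The summed hormone-sensing markers were lower in the same cells, at 1487 and 1437 CPM against 2273 and 2602 CPM, and their part in the difference was not tested. These were 2 of 5 members tested, against 5.06% of 7476 genes. *Btc* (-0.87 ± 0.37), *Erbb2* (-0.78 ± 0.38) and *Hbegf* (0.17 ± 0.15) did not pass.

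The difference between classes was itself tested in 1 fit over luminal ER-, hormone-sensing and basal sums, with the mouse as a block. Of 10 members, 4 had a different LATS1/2 KO effect in hormone-sensing than in luminal ER- cells, against 28.2% of 14102 genes. The effect was higher in hormone-sensing cells for *Btc* (by 3.72 ± 0.25, adjusted p = 7.33e-12), *Erbb3* (1.20 ± 0.18, adjusted p = 0.000294) and *Hbegf* (1.06 ± 0.13, adjusted p = 1.5e-06), and lower for *Tgfa* (-1.51 ± 0.32, adjusted p = 0.00062). The effects on *Areg*, which rose in both classes, differed by 0.25 (adjusted p = 0.784) and those on *Erbb4*, which fell in both, by -0.59 (adjusted p = 0.774). By library totals the median of all genes in this test stood 0.352 lower, so these differences are relative to that median.

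*Btc* and *Areg*, which moved in opposite directions in luminal ER- cells and in the same direction in hormone-sensing cells, are neighbors on chromosome 5. In the mm10 (GRCm38) annotation, *Epgn* (91027464 to 91035215, + strand), *Ereg* (91074622 to 91093646, +), *Areg* (91139599 to 91148432, +) and *Btc* (91357261 to 91402994, -) lie within 375.5 kb. *Epgn*, the gene of the EGFR ligand epigen and the only one of this stretch outside the 10 members, stood at 2.03 and 1.99 CPM in WT and 8.52 and 5.63 CPM in LATS1/2 KO in luminal ER- cells (1.48 ± 0.26, adjusted p = 0.00149). In hormone-sensing cells *Epgn* stood at 6.24 and 7.51 CPM in WT and 63.7 and 35.1 CPM in LATS1/2 KO (2.90 ± 0.29, adjusted p = 0.00155). *Btc* was thus the gene of the stretch with a fall in luminal ER- cells, where the other 3 rose, *Areg* with a call kept under 8 of 16 alternatives and with the opposite sign under own-marker gating.

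The 250 bases before the starts of *Areg* and *Btc* are shown because these neighbors diverged in luminal ER- cells. They are reference sequence from RefSeq (GRCm38.p6), 5′ to 3′ on the strand of the gene, at chr5:91139349-91139598 (+) and chr5:91402995-91403244 (-). Capitals mark the letters TGACGTCA, the palindromic cAMP response element, whose first base lies 61 bases before the start of *Areg*.
Areg: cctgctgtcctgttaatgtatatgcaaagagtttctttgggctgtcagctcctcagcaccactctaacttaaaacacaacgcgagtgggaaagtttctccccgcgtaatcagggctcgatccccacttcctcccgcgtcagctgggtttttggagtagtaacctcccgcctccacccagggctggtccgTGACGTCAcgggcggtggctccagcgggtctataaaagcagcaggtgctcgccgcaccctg
Btc: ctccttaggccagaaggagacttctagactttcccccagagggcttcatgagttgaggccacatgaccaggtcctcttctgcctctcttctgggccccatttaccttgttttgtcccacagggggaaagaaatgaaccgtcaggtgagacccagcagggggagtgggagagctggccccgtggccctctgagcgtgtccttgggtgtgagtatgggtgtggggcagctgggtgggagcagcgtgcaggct

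TGACGTCA was found on either strand in 1.55% of 32851 mouse promoters of this length and in that of *Areg* alone among the 6 members whose promoters were matched. TGANTCA, the AP-1 letters, was in 6.75% of all promoters and in none of the 6, and GGAATG, the core of TEAD sites, was in 12.6% of all and in *Erbb2* alone. A match of letters is a description of the window and not a binding site. *Hbegf*, *Ereg*, *Nrg1* and *Erbb3* were not matched.

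In basal cells, 2 of 7 members tested passed, against 35.0% of 9463 genes. The basal cells of WT lay in cluster 18, where 10 basal markers were present. Most of those of LATS1/2 KO lay in cluster 10, where 8 were present. The part of this difference between clusters in the changes below was not tested. *Egfr* stood at 78.4 and 68.0 CPM in WT and at 34.6 and 34.3 CPM in LATS1/2 KO. Each mouse of one group lay apart from the other group, and *Egfr* changed by -1.21 ± 0.22 (adjusted p = 6.3e-06), a call kept in 13 of 14 alternatives. Its change differed from that in luminal ER- cells, by -1.05 ± 0.21 (adjusted p = 0.000454), as did that of *Hbegf* (0.96 ± 0.17, adjusted p = 0.000131), which fell in luminal ER- but stood at 114 and 112 CPM in WT and 131 and 114 CPM in LATS1/2 KO among basal cells (-0.01 ± 0.18). Those 2 were the members with such a difference, against 21.8% of 14102 genes. *Tgfa* rose from 2.75 and 2.95 to 10.4 and 12.4 CPM, by 1.86 ± 0.64 (adjusted p = 0.0169). With only 2 UMIs in each WT mouse, the call of *Tgfa* was lost without WT replicate 1 (adjusted p = 0.135), without WT replicate 2 (adjusted p = 0.125) and with DESeq2 (adjusted p = 0.218).

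*Nrg1*, at 20.6 and 22.2 CPM in basal cells of WT and 38.5 and 26.1 CPM in those of LATS1/2 KO, lay higher in both LATS1/2 KO mice without passing the test (0.46 ± 0.31, adjusted p = 0.264). *Erbb2*, at 2.75 and 4.43 CPM against 12.5 and 8.16 CPM, rested on 2 and 3 UMIs in WT and did not pass (1.37 ± 0.62, adjusted p = 0.0780). *Areg* (1.37 ± 1.69) and *Erbb3* (0.29 ± 0.40), both near or below the free-RNA level, did not pass. *Ereg*, *Btc* and *Erbb4* were not tested. *Ereg* was at 0 UMIs in both WT mice and at 9 and 6 in LATS1/2 KO, a level 1.31 times a floor of 3 UMIs over the WT group. *Erbb4* had 2 UMIs in each WT mouse and 0 in LATS1/2 KO, a WT level 5.11 times the same floor for LATS1/2 KO. Neither ratio is a lower bound, as the counting error of the few UMIs seen is left out. The basal sums were small, from 676924 to 3064341 UMIs, and held more free RNA than the luminal sums, by estimate 16.3 to 28.6% against 3.03 to 7.75% in luminal ER- cells.

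In fibroblasts none of the 4 members tested passed edgeR's test, and none had an unadjusted p under 0.05 by edgeR or by DESeq2. Over all genes, 6.25% of 8645 were called and 21.6% had an unadjusted p under 0.05. The WT fibroblasts numbered 62 and 28 cells, which limits what could be detected. Cluster 7 held 60 and 28 of them, whereas fibroblasts of LATS1/2 KO lay in clusters 7 (149 and 755 cells), 20 (94 and 128) and 22 (84 and 90). *Egfr*, the receptor that fibroblasts carried most, stood at 136 and 123 CPM in WT and at 130 and 176 CPM in LATS1/2 KO, overlapping groups with a difference of 0.33 ± 0.30 (adjusted p = 0.594). *Hbegf* (0.45 ± 0.34), *Areg* (0.47 ± 2.02) and *Erbb3* (-0.27 ± 0.58) did not pass either, and *Erbb3* lay at 1.02 to 1.45 times the free-RNA level. *Nrg1* was counted 43 and 41 times in LATS1/2 KO and not at all in WT, a level 1.58 times the floor of 3 UMIs over the WT group. *Ereg* was counted 27 and 22 times in LATS1/2 KO and 2 and 0 times in WT, a ratio of 1.39 with an exact counting interval of 0.364 to 11.8. Cluster 7, the cluster shared with WT, held 11 and 2 of the *Ereg* UMIs and 6 and 10 of the *Nrg1* UMIs of LATS1/2 KO. *Tgfa*, *Btc*, *Erbb2* and *Erbb4* had at most 3 UMIs in any WT mouse.

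Genes that act around the receptors were counted from lists, beside the 62.1% of all genes called in luminal ER- cells in either direction. Of 9 genes of ligand release, the proteases and iRhom proteins that process the precursors, 6 rose and 2 fell in luminal ER- cells (median 0.65, against 0.01 over all genes tested). *Adam12*, a metalloprotease, had no UMI in either WT mouse and 100 and 103 in LATS1/2 KO, 81.6 times the floor of 3 UMIs per group. After subtraction of the expected free RNA, 70 and 78 UMIs were left, 59.5 times that floor. *Frmd8*, which stabilizes the iRhom and ADAM17 complex, rose from 12.2 and 10.8 to 34.1 and 39.5 CPM (1.34 ± 0.12, adjusted p = 5.01e-05). In hormone-sensing cells 6 of 9 rose (30.2% of all genes called), and in basal cells 3 of 8 rose (35.0% of all genes called), the rest not passing the test.

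Of 18 feedback inhibitors of receptor or ERK signaling, 5 rose and 6 fell in luminal ER- cells (median -0.16). *Dusp5*, a phosphatase of nuclear ERK, stood at 632 and 631 CPM in WT and at 150 and 181 CPM in LATS1/2 KO (-2.26 ± 0.12, adjusted p = 2.99e-06). *Spry1*, an inhibitor of receptor signaling, went the other way, from 3.49 and 2.96 to 27.5 and 24.4 CPM (2.67 ± 0.15, adjusted p = 4.95e-06). Between reporter states of luminal ER- cells 11 of the 18 were lower in *EYFP*-positive cells and the other 7 did not pass, with 41.9% of all genes called (median -0.48 against -0.03 over all genes). Of 10 ERK response genes, 4 rose and 4 fell in luminal ER- cells (median -0.11): *Etv4*, a transcription factor, rose from 1.11 and 1.34 to 30.3 and 25.0 CPM (4.16, adjusted p = 1.78e-06), and *Fosl1*, a subunit of AP-1, fell from 93.8 and 85.9 to 35.8 and 34.0 CPM (-1.70). In basal cells 6 of the 10 rose and 1 fell, against the 35.0% of all genes called there.

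The remaining lists are given by their counts, to be read against the same 62.1% of all genes. Of 20 adaptors and kinases, 9 rose and 6 fell in luminal ER- cells (median 0.06), with *Akt1* (1.16) and *Hras* (1.03) having the lowest p. Among the other ligands *Egf*, *Epgn* and *Nrg2* to *Nrg4*, 2 had enough counts in luminal ER- cells, of which *Epgn* rose and *Nrg2* did not pass (-0.74, adjusted p = 0.144). Of 12 YAP/TAZ targets 8 rose and 2 fell (median 1.05), with *Ctgf* at 14.8 and 10.3 CPM in WT and 355 and 449 CPM in LATS1/2 KO and *Ajuba* higher by 3.11. Of the 15 immediate early genes 3 rose and 11 fell (median -1.65), *Jund* (-2.14) and *Btg2* (-2.15) among them.

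Over the 12 sums of luminal ER-, hormone-sensing and basal cells of the 4 mice, the genes whose levels ran most like *Areg* among 8164 genes were *Arg2* (Pearson r = 0.978), *Acot1* (0.973) and *Nek7* (0.972). Those most like *Egfr* were *Mme* (0.977), *Nfix* (0.977) and *Nhsl1* (0.976), and those most like *Erbb3* were *Pkig*, *Ccdc64b* and *Prr15l* (0.984 each). The 12 sums share 4 libraries and fall into 3 classes, so these correlations mainly describe which class a gene belongs to.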

How the data were processed

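Single-cell libraries (10x Genomics, 3′ v3) of 4 mice were mapped by the authors to mm10 with Cell Ranger (3.1.0 by the submitters' processing notes, 6.1.2 by the headers of the matrices), and the deposited values are raw UMI counts per gene and cell. From these, cells holding over 500 detected genes, whose mitochondrial share lay below 20%, were clustered with Seurat 5.3.0 and sctransform 0.4.2 in R 4.3.3 (3000 variable genes less the members, *EYFP*, *Lats1* and *Lats2*, 20 principal components, resolution 0.8). A cluster took the class with the largest share of markers present, with at least 3 of them, and limits of this rule were set after marker levels had been seen. Of the cells, 16296 were named, 827 (cluster 12) were set aside because basal markers led a luminal cluster, and 1077 were left unnamed. Doublets were not removed, and the study's methods name no such step. UMIs were summed per mouse and class, and for the reporter comparisons per mouse, class and *EYFP* state. Sums of 20 cells or more were tested with edgeR 4.0.16 (robust quasi-likelihood fit, TMM, filterByExpr, Benjamini-Hochberg adjustment over all genes, threshold 0.05), and SE is the absolute log2 fold change divided by the square root of F. The tests were also run on simulated counts. Alternatives were DESeq2 1.42.0, other size factors, filters, depths, clusterings and gates, and each library left out. Named are all 10 members, the 2 genes of each list with the lowest p in luminal ER- cells, and the 3 genes most like *Areg*, *Egfr* and *Erbb3*. The members and lists were chosen with earlier results of these data known. Libraries held 38792520 to 46810771 UMIs in kept cells, and intervals cover counting error only. Floors (3 UMIs) cover the counting error of the group without UMIs and not that of the other group. Each library was made from 1 mouse.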

Additional observations from a re-analysis of the deposited data

Results flagged for a closer look

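The LATS1/2 KO effect of 5 members differed, in 6 differences, between cell classes by a test of the difference itself (edgeR quasi-likelihood test with the mouse as a block, adjusted over all genes). Relative to luminal ER- cells, the effect in hormone-sensing cells was higher by 3.72 for *Btc*, 1.20 for *Erbb3* and 1.06 for *Hbegf* on the log2 scale, and differed by -1.51 for *Tgfa*. Relative to luminal ER- cells, the effect in basal cells was higher by 0.96 for *Hbegf* and differed by -1.05 for *Egfr*. *Btc* had the largest of these differences, as its level fell in one luminal class and rose in the other. Each group held 2 mice, too few to look for a mouse far from the rest of its group.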

How the results depend on the processing

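Of the member values recomputed under an alternative, 896 were counted as unchanged in direction and side of the threshold, 68 lost the call, 29 gained it and 57 changed sign, of which 5 were of members with a call. Between reporter states, values without 1 mouse have no test. Those were counted as unchanged unless a member with a call changed sign. Counts of members called moved by over 1.5 times in these cases. In hormone-sensing cells 0 were called on sums thinned to the smallest and 1 to 3 with 1 library left out, against 4. In basal cells DESeq2 called 1, thinned sums 0 and fits without 1 library 1 to 2, against 2. In fibroblasts 1 (*Nrg1*) was called with no filter. Between reporter states of luminal ER- cells DESeq2 called 2, cells thinned to 2000 UMIs 3, cluster 5 alone 3, clusters 4 and 6 alone 0 and the fit with no replicate block 1, against 7. Between those of hormone-sensing cells DESeq2, cells thinned to 2000 UMIs and no replicate block called 1 each and the gate by each cell's own markers 7, against 2. For the difference of basal from luminal ER- cells that gate called 1, against 2. Without 1 library, the calls ranged from 5 to 7 in luminal ER- cells, from 4 to 7 for *EYFP* = 0 cells against WT and from 4 to 5 for the difference between luminal classes.

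Of members with a call, *Areg* changed sign under the own-marker gate (-0.90 in luminal ER- cells, -0.72 in their *EYFP* = 0 cells against WT, -0.51 between reporter states) and between reporter states with both luminal classes pooled (-1.60), and *Hbegf* between reporter states within clusters 4 and 6 (-0.036). The other changes of sign were of differences that had not passed the test, and ranges are those without 1 library. In luminal ER- cells *Egfr* turned by library totals (0.30), the gate (0.36), resolution 0.4 (0.23), with cluster 12 (0.10), with clusters 12, 14 and 19 (0.25) and in its range (-0.22 to 0.18), and *Erbb3* by library totals (0.29) and in its range (-0.21 to 0.13). In *EYFP* = 0 cells against WT *Egfr* turned by library totals (0.17), the gate (0.21), resolution 0.4 (0.055), with clusters 12, 14 and 19 (0.070) and in its range (-0.38 to 0.020), *Nrg1* with free RNA subtracted (-0.041) and in its range (-0.46 to 0.92), and *Erbb3* in its range (-0.030 to 0.32). Between reporter states *Erbb2* turned within clusters 4 and 6 (0.21) and *Tgfa* at 2000 UMIs per cell (-0.33). In hormone-sensing cells *Egfr* turned with free RNA subtracted (-0.99), on thinned sums (-1.51) and in its range (-0.041 to 0.67), and *Erbb2* in its range (-0.017 to 0.25). In basal cells *Hbegf* turned with no filter (0.11), library totals (0.10), the gate (0.44) and in its range (-0.13 to 0.089), *Erbb3* under the gate (-0.22) and in its range (-0.037 to 0.80), and *Areg* under the gate (-0.17). In fibroblasts *Egfr* turned under the gate (-0.16) and on thinned sums (-6.88), *Hbegf* on thinned sums (-3.12), *Erbb3* under the gate (3.10) and in its range (-0.32 to 0.0015), and *Areg* with free RNA subtracted (-0.21) and in its range (-1.37 to 4.18). For hormone-sensing against luminal ER- cells *Areg* turned by library totals (-0.11), with clusters 12, 14 and 19 (-0.078) and in its range (-0.24 to 0.52), *Ereg* under the gate (0.063), and *Erbb2* under the gate (0.14) and in its range (-0.42 to 0.047). For basal against luminal ER- cells *Ereg* turned with DESeq2 (-0.79), *Btc* by library totals (-0.16), the gate (-0.68) and in its range (-4.85 to 0.81), and *Areg* under the gate (0.87) and in its range (-1.03 to 0.54). The causes were not tested. Library totals, the added clusters and the splits by cluster were chosen after the data had been seen.

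Mice of both groups share replicate numbers, and over all genes deviations of equal numbers correlated by only -0.00759 to 0.0362. A correlation over all genes cannot exclude a shared factor for single genes. *Areg* stood higher in replicate 1 than in replicate 2 of both groups in luminal ER-, hormone-sensing and basal cells. A fit with the replicate number as a block called 7 members in luminal ER-, 4 in hormone-sensing, 3 in basal (*Areg* added) and 0 in fibroblast sums, and 6 for *EYFP* = 0 cells against WT (*Erbb2* lost). No other call changed under it, but the SE of *Areg* in luminal ER- cells was 0.125 in place of 0.489. Its adjusted p by edgeR there was 1.97e-05 in place of 0.0477. The differences between classes were fitted with the mouse as a block, and with no replicate block the same 4 and 2 members were called.

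The chief limits are 2 mice per group, WT basal and fibroblast sums of 28 to 197 cells, a class assignment that rests on clusters holding mostly 1 group, and a reporter call that depends on depth. Own-marker gating put 10368 cells in the luminal ER- class against 8512 by cluster, and 2223 against 3081 in the hormone-sensing class.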
